A study of Mus musculus with 10 samples.

Results

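The Bcl2 family genes followed here are Bcl2, Bcl2l1, Mcl1, Bax, Bak1, Bcl2l11, Bid, Bad, Bbc3 and Pmaip1, read with every probe set that the array's annotation gives to one of these 10 symbols. There are 29 such probe sets, for 9 of the 10 genes, among 45101 probe sets and 18194 gene symbols on the array. Bax has no probe set listed and was not analysed here. A probe set is a group of short DNA probes that together give 1 signal, which is in arbitrary units on a linear scale.

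RNA was taken from cultures of mouse bone marrow progenitors that had been immortalized by an oncogene, and each of 10 Affymetrix Mouse Genome 430 2.0 arrays read 1 culture. HoxA9, a homeobox transcription factor, was measured in 3 clones. HoxA9+Meis1, in which HoxA9 was expressed together with its DNA-binding cofactor Meis1, was measured in 3 clones, and the fusion of a nucleoporin with a histone methyltransferase, NUP98-NSD1, in 3 clones. MLL-ENL, a fusion of a histone methyltransferase with an elongation factor, was measured on 1 array. All cultures were derived with stem cell factor (SCF) and without GM-CSF, so every group shares a culture that depends on that cytokine. The labels give no untransformed culture, no mouse strain or age, and no promoter for the oncogenes, and they do not say whether clones came from separate animals. The p-values therefore measure the spread between these clones, which may be technical.

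Proteins of the Bcl2 family decide whether the outer mitochondrial membrane is opened, which releases cytochrome c and starts the caspases. Pro-survival members (Bcl2, Bcl-xL from Bcl2l1, and Mcl1) hold the effectors Bak and Bax in check, and BH3-only proteins (Bim from Bcl2l11, Bid, Bad, Puma from Bbc3 and Noxa from Pmaip1) bind the pro-survival members or the effectors and tip the balance towards death. In blood progenitors Mcl1 is needed for survival, and loss of cytokine signals is known to raise Bim and Puma, in part through forkhead (FOXO) factors.

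The DNA just upstream of 3 of these genes is shown. Each had at least 1 probe set that passed the test described below between the HoxA9 and HoxA9+Meis1 clones. For Bcl2l11 it was 1 of 5 probe sets. The results of Bcl2l11 and Bbc3 were lost with some clones left out. The stretches are from RefSeq on GRCm38.p6, run 5′ to 3′ on the gene's strand and end at the base before the listed transcript start. The first is Bcl2 at chr1:106714291-106714540, minus strand. The second is Bcl2l11 at chr2:128125788-128126037, plus strand, 1 of 2 listed starts. The last is Bbc3 at chr7:16310011-16310260, plus strand, 1 of 3 listed starts. Capitals mark a forkhead core match. For Bcl2l11 and for Bbc3, the stretch shown is the only one of the listed starts that held this match.

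Bcl2 upstream: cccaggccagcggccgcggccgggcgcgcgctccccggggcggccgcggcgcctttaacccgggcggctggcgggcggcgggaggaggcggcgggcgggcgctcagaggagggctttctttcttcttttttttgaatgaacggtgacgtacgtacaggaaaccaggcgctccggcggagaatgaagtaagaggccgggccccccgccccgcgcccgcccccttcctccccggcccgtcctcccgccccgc

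Bcl2l11 upstream: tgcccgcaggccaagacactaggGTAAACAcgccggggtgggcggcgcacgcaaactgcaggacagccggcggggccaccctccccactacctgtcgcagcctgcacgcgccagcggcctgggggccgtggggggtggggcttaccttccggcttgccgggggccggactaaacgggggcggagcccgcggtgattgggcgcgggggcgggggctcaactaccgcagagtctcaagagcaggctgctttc

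Bbc3 upstream: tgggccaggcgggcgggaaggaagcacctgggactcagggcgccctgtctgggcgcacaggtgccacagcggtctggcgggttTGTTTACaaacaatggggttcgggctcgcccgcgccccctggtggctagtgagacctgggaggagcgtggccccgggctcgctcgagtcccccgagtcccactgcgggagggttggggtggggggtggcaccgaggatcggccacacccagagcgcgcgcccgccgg

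Both strands were searched for the MEIS core TGACAG, a HOX-PBX word TGATTTAT and the forkhead core TGTTTAC, none of which contains another. Of 32851 such windows of 250 bases in the RefSeq table, 15.9% held the MEIS core, 0.837% the HOX-PBX word and 3.17% the forkhead core. The Bcl2 stretch held none of them, which says only that these letters are not in this window. The Bcl2l11 stretch held the forkhead core on the opposite strand at -227 to -221, counted back from the transcript start. The Bbc3 stretch held it at -167 to -161, and the window of the last listed Bbc3 start held a MEIS core at -36 to -31. MEIS cores also lay upstream of 2 genes not called between HoxA9+Meis1 and HoxA9 with all clones, at -156 to -151 and -124 to -119 of 1 Bcl2l1 start and at -33 to -28 of 1 Bad start. GC content was 74.8% in the Bcl2 stretch, 72% in the Bcl2l11 stretch and 72.4% in the Bbc3 stretch, against a median of 52.4% over all windows. A match of letters is a description and no evidence of binding.

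Array medians ran from 440.3 to 660.3, and the number of arrays limits the precision. Hybridization controls, 18 probe sets for transcripts spiked into the samples, split the arrays along the groups and averaged 14.00 to 14.12 on the log2 scale on the 4 arrays of the fusions and 13.17 to 13.41 on the 6 others. The ratio of 3′ to 5′ signal of Actb was 1.18 to 1.43 on the fusion arrays and 1.09 to 1.17 on the rest. When NUP98-NSD1 or MLL-ENL is compared with HoxA9 or HoxA9+Meis1, array set and oncogene cannot be told apart. The comparison of the Hox groups, and that of the fusions with each other, each lie inside a single set. Of 10 markers of myeloid progenitors, 9 were above the filter level of 369.318 on every HoxA9 array and all 10 on every array of the other groups. Their levels were not all alike in the Hox groups. Cd34 was at 94 to 1845 in HoxA9 and 48216 to 50766 in HoxA9+Meis1, and Cd33 at 1634 to 2852 and 4990 to 8084. Elane went the other way, at 106958 to 116367 in HoxA9 and 13902 to 25137 in HoxA9+Meis1. The 7 others did not pass the test between these groups. Markers of other lineages differed between groups. Summed over 10 genes, neutrophil markers reached 443620 to 997786 in NUP98-NSD1 against 13781 to 99305 in the HoxA9 and HoxA9+Meis1 clones and 21947 in MLL-ENL. Over 9 genes, mast cell markers reached 62510 to 309119 in NUP98-NSD1 against 7827 to 26789 in both Hox groups and 4517 in MLL-ENL. Erythroid and megakaryocyte markers (6 genes) summed to 22245 and 16844 in NUP98-NSD1 clones 1 and 2 and to 4532 to 7760 on the other 8 arrays. T cell markers (7 genes) summed to 1736 to 3836 over all arrays. Stromal markers (6 genes) summed to 2781 to 11802, with 2781 to 5534 in HoxA9 and 7988 to 10103 in HoxA9+Meis1. Among the stromal markers, Pecam1 was at 434 to 2872 in HoxA9 and 5841 to 6736 in HoxA9+Meis1. The other stromal genes overlapped between the Hox groups, such as Col1a1 at 384 to 404 against 327 to 589. The part of these cell markers in the family's differences was not tested. In bulk RNA of this kind, more cells of a type and more RNA per cell cannot be told apart.

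Across the family, 26 of the 29 probe sets passed the filter on low values and were tested. The 3 that did not were Bcl2 1440770_at, with 19.2 to 315 on all arrays, and Bcl2l1 1426050_at and 1426191_a_at, with at most 555 and 703. Groups were compared with limma on log2(signal + 32), and a probe set was called at an adjusted p under 0.05 over all 30945 tested probe sets. In NUP98-NSD1 against HoxA9, 14 of the 26 were called (53.8%), while 29% of all tested probe sets were. Of the 14, 10 were higher, against a background of 12.3%, and 4 lower, against 16.7%. In NUP98-NSD1 against HoxA9+Meis1, 13 of the 26 were called (50%), against a background of 30.9%. Of these, 5 were higher (background 13.8%) and 8 lower (17.2%). In HoxA9+Meis1 against HoxA9, 5 of the 26 were called (19.2%), against 6.89%. All 5 were higher (background 3.4%) and 0 were lower (3.49%). At an unadjusted p under 0.05, these 3 comparisons gave 16, 15 and 11 family probe sets. The share of all tested probe sets at that threshold was not computed, so these counts have no background to be read against. The median log2 difference of the 26 was 0.20, -0.05 and 0.27 in the same order, and that of all tested probe sets -0.14, -0.13 and -0.02. The background median depended on brightness. In the dimmest 25% of tested probe sets it was -0.38, -0.33 and -0.06, and in the brightest 25% 0.01, 5.7e-05 and 0.03. Most family probe sets were among the brighter ones. For NUP98-NSD1, the medians over all tested probe sets lie below those of probe sets as bright as most of the family. Background shares of calls were not split by brightness. Several probe sets read the same gene, so the counts of called probe sets are not counts of independent genes. By the brightest probe set of each gene, 5, 5 and 2 of the 9 genes were called, where 31.4%, 32.6% and 8.66% of all 14233 genes were. The comparisons share arrays, so their counts are not independent of each other.

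**Figure D1:**
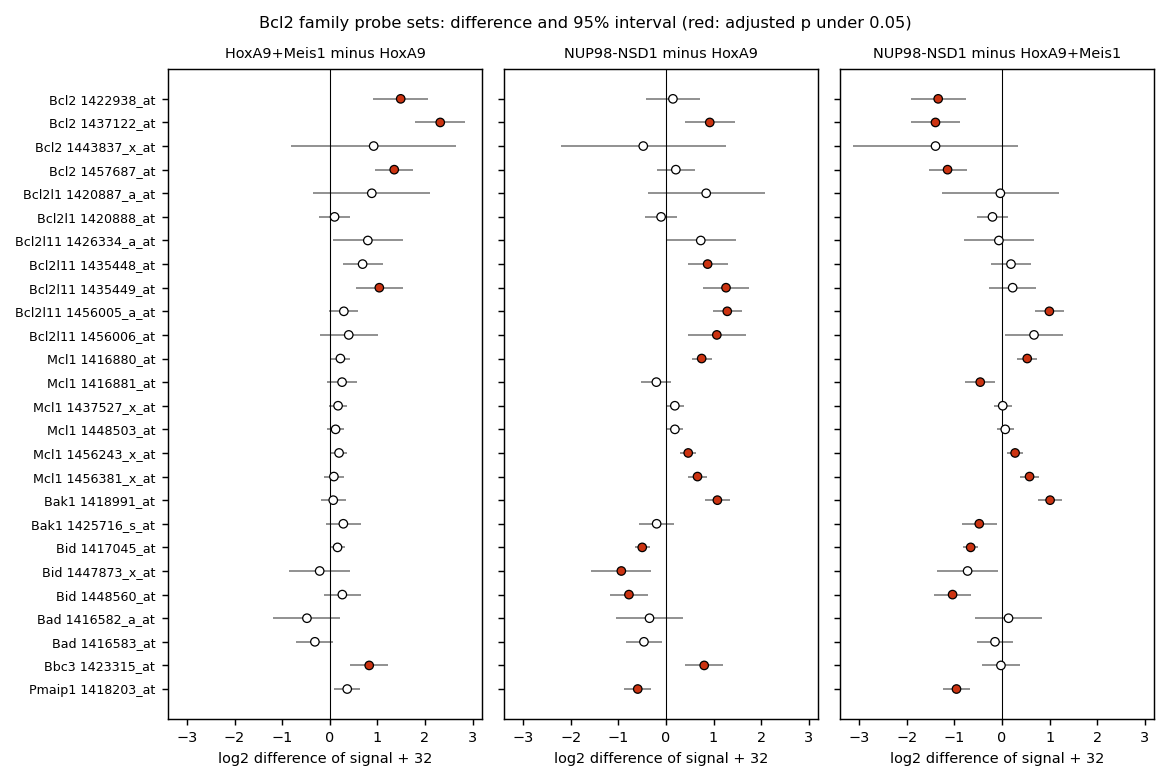
Difference between group means on the log2(signal + 32) scale (x axis) for each of the 26 tested Bcl2 family probe sets (y axis), in 3 comparisons. Points are limma estimates, lines 95% intervals and red marks an adjusted p under 0.05. The 3 bright Bcl2 probe sets lie furthest right in the first panel, and in the last panel Bak1 and Mcl1 each have called points on both sides of 0.

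The counts by role read against the same background shares. Of 12 pro-survival probe sets, 4 were higher and 0 lower in NUP98-NSD1 than in HoxA9, 3 were higher and 4 lower than in HoxA9+Meis1, and 3 were higher and 0 lower in HoxA9+Meis1 than in HoxA9. Of 12 BH3-only probe sets, 5 were higher and 4 lower in NUP98-NSD1 than in HoxA9, 1 was higher and 3 lower than in HoxA9+Meis1, and 2 were higher and 0 lower in HoxA9+Meis1 than in HoxA9. Of the 2 probe sets of the effector Bak1, 1 was higher in NUP98-NSD1 than in HoxA9, 1 was higher and 1 lower than in HoxA9+Meis1, and 0 were called between the Hox groups. The medians of the pro-survival and BH3-only probe sets were 0.20 and 0.19 for NUP98-NSD1 against HoxA9, -0.12 and -0.05 against HoxA9+Meis1, and 0.24 and 0.33 for HoxA9+Meis1 against HoxA9. Roles were not tested against each other.

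Bcl2, the founding pro-survival member, set the HoxA9+Meis1 clones apart from every other culture. Probe set 1437122_at read 1625, 1755 and 1366 in the HoxA9 clones and 7835, 10087 and 6428 in the HoxA9+Meis1 clones. It read 3380, 3854 and 2084 in the NUP98-NSD1 clones and 2360.3 on the MLL-ENL array. Every HoxA9+Meis1 clone was above each of the 7 other arrays. The log2 difference of HoxA9+Meis1 from HoxA9 was 2.32 (SE 0.24, 95% interval 1.80 to 2.84, n = 3 and 3), a 4.99-fold rise of signal + 32 with an adjusted p of 0.000304. NUP98-NSD1 lay below HoxA9+Meis1, with a difference of -1.40 (SE 0.24, adjusted p = 0.00179).

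The other bright Bcl2 probe sets gave the same order. Probe set 1457687_at read 3170.5, 3878 and 3009.6 in HoxA9, 9033, 9579 and 7248 in HoxA9+Meis1, 4278, 4492 and 2976 in NUP98-NSD1, and 2917 in MLL-ENL. Probe set 1422938_at read 1755, 1519 and 1942 in HoxA9, 4490.5, 5486 and 4809 in HoxA9+Meis1, 2221, 2676 and 1184 in NUP98-NSD1, and 1817 in MLL-ENL. On both, the lowest HoxA9+Meis1 clone was above the highest array of any other group. HoxA9+Meis1 exceeded HoxA9 by 1.35 (SE 0.18, adjusted p = 0.00154) and by 1.49 (SE 0.26, adjusted p = 0.00667), and NUP98-NSD1 differed from HoxA9+Meis1 by -1.14 (adjusted p = 0.00119) and -1.34 (adjusted p = 0.00360). These 3 probe sets kept both calls under every alternative setting tried and with each clone left out in turn. The dim 1443837_x_at read 569 to 931 in HoxA9+Meis1 and 316 to 472 in HoxA9 without a call (adjusted p = 0.638), and 28.7 in 1 NUP98-NSD1 clone.

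**Figure D2:**
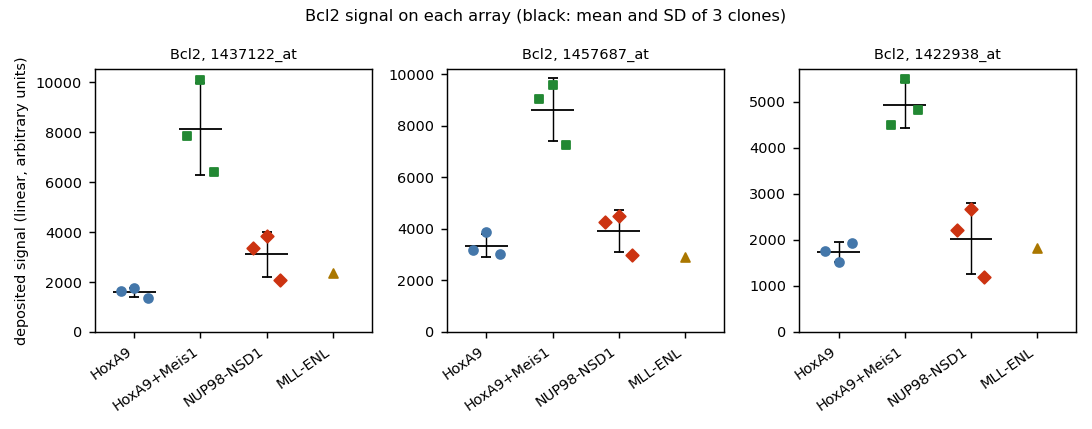
Deposited signal of the 3 bright Bcl2 probe sets (y axes, linear, arbitrary units) on each array, by oncogene group (x axis). Points are arrays, and black bars the mean and SD of 3 clones (MLL-ENL has 1 array). The HoxA9+Meis1 clones are above all other arrays in each panel.

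Between HoxA9 and NUP98-NSD1, Bcl2 was less clear. Probe set 1437122_at differed by 0.92 (SE 0.24, adjusted p = 0.0156), and every NUP98-NSD1 clone was above every HoxA9 clone. The call was lost without NUP98-NSD1 clone 1 (adjusted p = 0.0506), without NUP98-NSD1 clone 2 (0.0586) and without HoxA9 clone 3 (0.0558). Probe sets 1457687_at and 1422938_at differed by 0.21 (adjusted p = 0.412) and 0.15 (adjusted p = 0.700), and their groups overlapped. NUP98-NSD1 clone 3 was the lowest of its group on all 3.

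Markers of other cell types also differed between the HoxA9+Meis1 and HoxA9 clones. B cell markers, summed over 7 genes, were at 13750 and 11202 in HoxA9+Meis1 clones 1 and 2, at 4160 in clone 3, and at 3219 to 4540 in HoxA9. Of those 7 genes, 4 were above the filter level on every HoxA9+Meis1 array, and 0 passed the test between the Hox groups. Dendritic cell markers, summed over 7 genes, were at 50078, 44152 and 28024 in the HoxA9+Meis1 clones and at 3402 to 5855 in HoxA9, and 5 of the 7 were above the filter level on every HoxA9+Meis1 array. Most of that sum came from Flt3, a cytokine receptor of early progenitors and dendritic cells, at 34997, 30939 and 23470 against 702 to 1430 in HoxA9. Of the other 6 genes, Itgax was at 9914, 7384 and 2274 against 313 to 885. Siglech was at 2207, 2389 and 569 against 347 to 655, and Cd74 at 1681, 2147 and 783 against 702 to 1056. H2-Eb1 was at 564 to 947 against 348 to 960, while H2-Ab1 was below the filter level on all 6 arrays and H2-Aa was at 112 to 516 against 555 to 757. The sum of monocyte and macrophage markers (9 genes) was higher in all 3 HoxA9+Meis1 clones, at 79866 to 124783 against 21657 to 34082 in HoxA9. Of the 9 genes, 3 were called higher and 6 were not called. The called genes were Cd68, Ly86, at 36405 to 47073 against 106 to 596, and Ctss, at 14288 to 21811 against 373 to 1062. Csf1r overlapped, at 6953 to 31553 against 8654 to 17945. The part of these B cell, dendritic and monocyte markers in the Bcl2 difference was not tested. The monocyte and macrophage markers summed to 87464 in MLL-ENL and to 52002 to 65239 in NUP98-NSD1. The MLL-ENL sum differed in make-up from that of HoxA9+Meis1, with Ly86 at 278 and Csf1r at 38226.

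**Figure D3:**
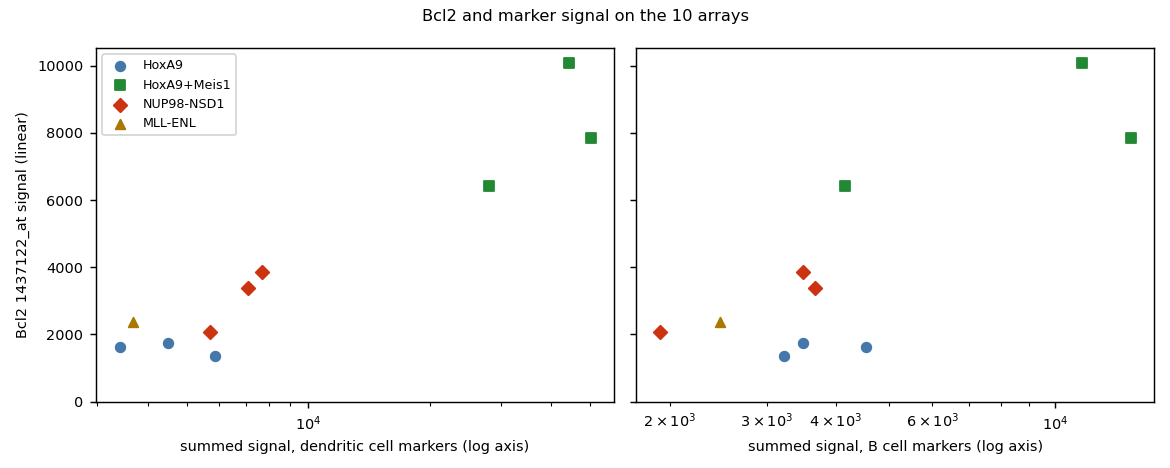
Bcl2 1437122_at signal (y axis, linear) against the summed signal of 7 dendritic cell markers (left, log x axis) and of 7 B cell markers (right, log x axis) on each of the 10 arrays, coloured by group. HoxA9+Meis1 clone 3, the lowest green square, has marker sums of 28024 and 4160 and a Bcl2 signal of 6428.

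Bcl2l1, which encodes Bcl-xL, was called in none of the 3 comparisons by limma, on either tested probe set. Probe set 1420888_at read 3663, 3606 and 4143 in HoxA9, 4071.5, 4165 and 3975 in HoxA9+Meis1, 3889, 4045 and 2807 in NUP98-NSD1, and 3428 in MLL-ENL. The 3 groups overlapped. The 95% interval of the log2 difference was -0.23 to 0.43 for HoxA9+Meis1 minus HoxA9, -0.43 to 0.23 for NUP98-NSD1 minus HoxA9 and -0.53 to 0.13 for NUP98-NSD1 minus HoxA9+Meis1. Probe set 1420887_a_at read 229 in HoxA9 clone 1 and 1074 to 1707 on the other 9 arrays, which left wide intervals, such as -0.39 to 2.08 for NUP98-NSD1 minus HoxA9. Likewise, its signals did not follow those of 1420888_at (r = 0.10 over 10 arrays).

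Mcl1, a short-lived pro-survival protein, gave bright signals on all 6 of its probe sets, each among the brightest 25% of the tested probe sets. Within the replicated groups its differences were modest and depended on the probe set. The brightest, 1448503_at, read 21516, 24617 and 25067 in HoxA9, 26127, 25440 and 25689 in HoxA9+Meis1 and 26939, 26073 and 27957 in NUP98-NSD1, with no call in any comparison (adjusted p 0.0962 to 0.547). Probe set 1416880_at read 9052, 9281 and 9401 in HoxA9, 11556, 10260.0 and 10576 in HoxA9+Meis1, and 17095, 14092 and 15666 in NUP98-NSD1. On this probe set the 3 groups did not overlap, and NUP98-NSD1 differed by 0.75 from HoxA9 (SE 0.09, adjusted p = 0.000368) and by 0.53 from HoxA9+Meis1 (SE 0.09, adjusted p = 0.00228).

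Probe set 1456381_x_at was also higher in NUP98-NSD1, by 0.66 over HoxA9 (adjusted p = 0.000647) and 0.58 over HoxA9+Meis1 (adjusted p = 0.00124). Probe set 1456243_x_at was higher by 0.47 (adjusted p = 0.00186) and 0.27 (adjusted p = 0.0230). The last of these calls was lost without HoxA9+Meis1 clone 1 (adjusted p = 0.0718) or clone 2 (0.0671), and with arrays shifted to a common median (0.0808). In the opposite direction, 1416881_at was lower in NUP98-NSD1 than in HoxA9+Meis1, by -0.46 (adjusted p = 0.0331), with 7158, 6905 and 10384 against 11356, 10492 and 11217. That call was lost in 5 of 6 fits with 1 clone left out, all but the fit without NUP98-NSD1 clone 3, with adjusted p of 0.0633 to 0.112, and its adjusted p was 0.348 with arrays at a common median. Probe sets of Mcl1 thus gave calls in both directions in 1 comparison. Of the 1540 genes with at least 2 called probe sets in NUP98-NSD1 against HoxA9+Meis1, 21.7% had calls in both directions, and 21.3% of 1357 did against HoxA9, but 0.289% of 346 did within the Hox groups.

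MLL-ENL had the highest Mcl1 signal on every probe set. It read 44621 on 1448503_at, 37152 on 1437527_x_at, 33436 on 1456243_x_at, 30178 on 1416880_at, 22987 on 1456381_x_at and 15256 on 1416881_at. These values were 1.65 to 2.00 times the NUP98-NSD1 mean and 1.65 to 3.26 times the HoxA9 mean of signal + 32, and each was above all 9 other arrays. With 1 array there is no replicate check of this difference. Among the brightest 25% of the tested probe sets the median difference of MLL-ENL from NUP98-NSD1 was 0.05 on the log2 scale, and from HoxA9 it was 0.08.

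**Figure D4:**
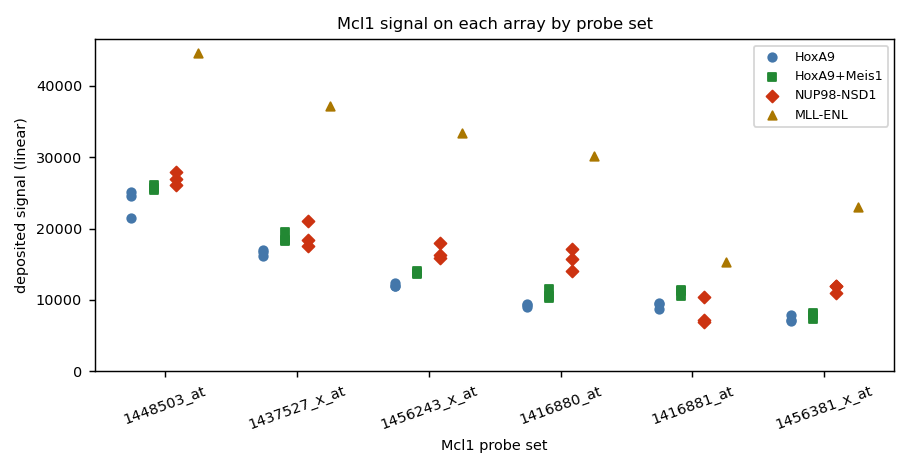
Deposited signal (y axis, linear, arbitrary units) of the 6 Mcl1 probe sets (x axis) on each array, by oncogene group. The MLL-ENL array is the highest point of each probe set, from 15256 to 44621.

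Bak1, which encodes the effector Bak that forms pores in the outer mitochondrial membrane, differed between NUP98-NSD1 and the Hox groups on 1 probe set. Probe set 1418991_at read 4889, 6366 and 5470.0 in HoxA9, 5988, 5900.0 and 5596 in HoxA9+Meis1, 10616, 12015 and 12735 in NUP98-NSD1, and 13296 in MLL-ENL. All 4 fusion arrays were above all 6 others, and NUP98-NSD1 exceeded HoxA9 by 1.08 (SE 0.12, adjusted p = 0.000166) and HoxA9+Meis1 by 1.01 (SE 0.12, adjusted p = 0.000240). This split is also the split of the array sets. The dimmer 1425716_s_at read 1607, 1594 and 1643 in HoxA9, 1935, 1756 and 2257 in HoxA9+Meis1, 1457, 1271 and 1499 in NUP98-NSD1, and 1552 in MLL-ENL, and its signal was lower in NUP98-NSD1 than in HoxA9+Meis1 by -0.48 (adjusted p = 0.0478). That call was lost in 5 of 6 fits with 1 clone left out, all but the fit without NUP98-NSD1 clone 3 (adjusted p 0.0591 to 0.158), and with a common median (0.281). The Bak1 probe sets had a correlation of -0.66 over the 10 arrays, so the direction for Bak1 rests on which probe set is read.

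Bcl2l11, which encodes Bim, a BH3-only protein that binds all pro-survival members, was higher in NUP98-NSD1 than in HoxA9 on 4 of its 5 probe sets. The brightest, 1456005_a_at, read 4664, 3353 and 3379 in HoxA9, 4885, 4416 and 4541 in HoxA9+Meis1, 9267, 9719 and 8672 in NUP98-NSD1, and 6401 in MLL-ENL. The NUP98-NSD1 clones were above all other arrays, and the MLL-ENL array was next. NUP98-NSD1 differed from HoxA9 by 1.29 (SE 0.14, adjusted p = 0.000151), a 2.44-fold difference, and from HoxA9+Meis1 by 0.99 (SE 0.14, adjusted p = 0.000603).

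On 3 of the other 4 Bcl2l11 probe sets the HoxA9+Meis1 mean was closer to NUP98-NSD1 than to HoxA9. On 1435449_at the HoxA9 clones read 1816, 1299 and 1105, the HoxA9+Meis1 clones 3114, 2692 and 2801, and the NUP98-NSD1 clones 2682, 3176 and 4395. HoxA9+Meis1 was higher than HoxA9 by 1.04 (SE 0.22, adjusted p = 0.0182) and NUP98-NSD1 by 1.26 (SE 0.22, adjusted p = 0.00241), while the difference of NUP98-NSD1 from HoxA9+Meis1 was 0.22 (95% interval -0.27 to 0.71). The call for HoxA9+Meis1 was lost when HoxA9+Meis1 clone 1 or 2 or HoxA9 clone 2 or 3 was left out (adjusted p 0.0546 to 0.0754). It was also lost with arrays shifted to a common median (0.0697). On 1435448_at the difference of HoxA9+Meis1 from HoxA9 was 0.69 (adjusted p = 0.0571) and that of NUP98-NSD1 0.88 (adjusted p = 0.00699). On 1456006_at the HoxA9+Meis1 clones read 838, 1189 and 1390.3, closer to HoxA9 with 1215, 754 and 643 than to NUP98-NSD1 with 2062, 1668 and 1682. NUP98-NSD1 exceeded HoxA9 there by 1.07 (adjusted p = 0.0156), a call lost without HoxA9 clone 2 (0.0551) or clone 3 (0.0591). On 1426334_a_at it exceeded HoxA9 by 0.73 without a call (adjusted p = 0.121). HoxA9 clone 1 was the highest of its group on all 5 Bcl2l11 probe sets.

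Bbc3, which encodes Puma, a BH3-only protein induced by p53 and by FOXO factors, has 1 probe set, 1423315_at. It read 1772, 1710.2 and 1283 in HoxA9, 2589, 2548 and 3379.6 in HoxA9+Meis1, 3101, 2612 and 2619.7 in NUP98-NSD1, and 3436 in MLL-ENL. Every HoxA9 clone was below all 7 other arrays. HoxA9+Meis1 was higher than HoxA9 by 0.83 (SE 0.18, adjusted p = 0.0190) and NUP98-NSD1 by 0.80 (SE 0.18, adjusted p = 0.00784), both of n = 3 and 3. The adjusted p of HoxA9+Meis1 against HoxA9 was 0.0657 without HoxA9+Meis1 clone 3, 0.0697 without HoxA9 clone 3 and 0.0544 in a fit without the intensity trend. The difference of NUP98-NSD1 from HoxA9+Meis1 was -0.02, with an interval of -0.42 to 0.37.

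Bid, which links death receptors to mitochondria once caspase-8 has cut it, was lower in NUP98-NSD1. Probe set 1417045_at read 20637, 21502 and 22401 in HoxA9, 23754, 23374 and 25047 in HoxA9+Meis1, 15068, 15567 and 15008 in NUP98-NSD1, and 22809.8 in MLL-ENL. The NUP98-NSD1 clones were below all 7 other arrays, and MLL-ENL lay between the HoxA9 and HoxA9+Meis1 ranges. NUP98-NSD1 differed from HoxA9 by -0.50 (SE 0.07, adjusted p = 0.000857) and from HoxA9+Meis1 by -0.66 (SE 0.07, adjusted p = 0.000182). On 1448560_at the differences were -0.78 (adjusted p = 0.00915) and -1.04 (adjusted p = 0.00190), and MLL-ENL, at 5551, was below both Hox groups and above the NUP98-NSD1 clones. With each array shifted to a common median, both calls against HoxA9 were lost (adjusted p = 0.151 and 0.115) and both against HoxA9+Meis1 were kept. The dimmer 1447873_x_at was lower than HoxA9 by -0.94 (adjusted p = 0.0322), a call lost without NUP98-NSD1 clone 2 or 3 or HoxA9 clone 2 or 3 (adjusted p 0.0886 to 0.0992). There MLL-ENL, at 1437, was below both Hox groups and within the NUP98-NSD1 range.

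Pmaip1, which encodes Noxa, a BH3-only protein that binds Mcl1, has 1 probe set. The means of its clone groups had the same order as on Bid 1417045_at and 1448560_at, but not as on Bid 1447873_x_at. Probe set 1418203_at read 12114, 13677 and 11043 in HoxA9, 15272, 14199.7 and 18055 in HoxA9+Meis1, 8838, 8470.3 and 7100 in NUP98-NSD1, and 16135 in MLL-ENL. No group of clones overlapped another. NUP98-NSD1 was lower than HoxA9+Meis1 by -0.96 (SE 0.13, adjusted p = 0.000463), a fall of 1.94-fold, and lower than HoxA9 by -0.59 (SE 0.13, adjusted p = 0.00640). The call against HoxA9 was lost with arrays at a common median (adjusted p = 0.0978). HoxA9+Meis1 exceeded HoxA9 by 0.36, which did not pass (adjusted p = 0.126).

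Bad, a BH3-only protein held inactive when growth factor signals phosphorylate it, was called in none of the comparisons by limma with all clones in the fit. Probe set 1416582_a_at read 6068, 5497 and 5350.0 in HoxA9 and 4890.4, 3934 and 4500 in NUP98-NSD1. It read 5849.6 in MLL-ENL. In HoxA9+Meis1 it read 7871 in clone 1 but 2949.5 and 2800.3 in the others, so clone 1 was the highest of all 10 arrays and the others the lowest. Without that clone HoxA9+Meis1 was lower than HoxA9 by -0.96 (adjusted p = 0.00600), against -0.48 (adjusted p = 0.494) with it. NUP98-NSD1 then exceeded HoxA9+Meis1 by 0.62 (adjusted p = 0.0140), against 0.14 (adjusted p = 0.777). Probe set 1416583_at read 3633 to 4128 in HoxA9, 2722 to 3462 in HoxA9+Meis1, 2347 to 3663 in NUP98-NSD1 and 4434 in MLL-ENL, and adjusted p was 0.389 for HoxA9+Meis1 against HoxA9, 0.0705 for NUP98-NSD1 against HoxA9 and 0.551 for NUP98-NSD1 against HoxA9+Meis1.

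**Figure D5:**
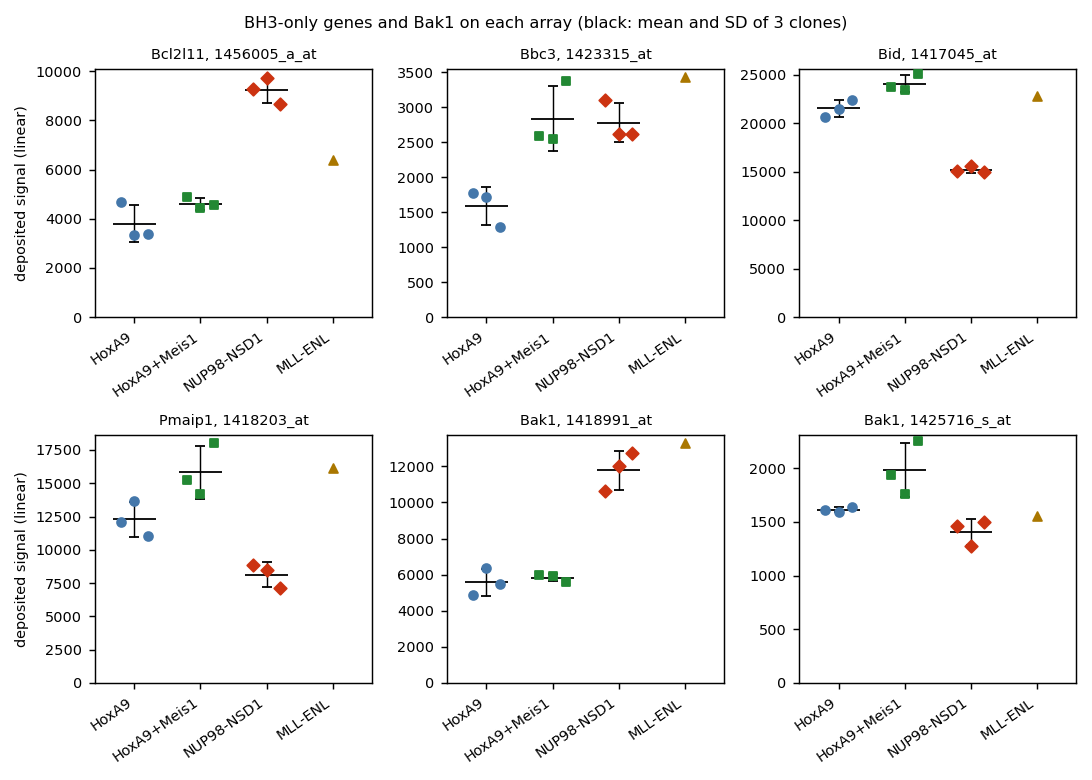
Deposited signal (y axes, linear, arbitrary units) of the BH3-only genes Bcl2l11, Bbc3, Bid and Pmaip1 and of both Bak1 probe sets on each array, by group (x axis). Points are arrays and black bars the mean and SD of 3 clones (MLL-ENL has 1 array). The NUP98-NSD1 clones are the highest for Bcl2l11 and the lowest for Bid and Pmaip1.

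MLL-ENL can be placed against the other groups as a description. Its signal was outside the range of the NUP98-NSD1 clones on 21 of the 26 probe sets (80.8%, against 56.6% of all tested probe sets). It was above on 14, against a background of 22.9%, and below on 7, against 33.7%. It was outside the range of all 9 other arrays on 10 of the 26 (38.5%, against 28.1%). In 9 of these it was above, against 9.19% of all tested probe sets. They were the 6 of Mcl1, Bak1 1418991_at, Bad 1416583_at and Bbc3 1423315_at. It was below all others on Bcl2 1457687_at alone, against 19% of all tested probe sets. For Bcl2l11, MLL-ENL was below the NUP98-NSD1 clones on all 5 probe sets. For Pmaip1 its signal was 1.99 times the NUP98-NSD1 mean and within the HoxA9+Meis1 range.

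Scaling bears on the direction of small differences between array sets. The deposited values have a common trimmed mean, and a shift to a common median instead raised every log2 difference of NUP98-NSD1 from HoxA9 by 0.19, from HoxA9+Meis1 by 0.15, and that of HoxA9+Meis1 from HoxA9 by 0.04. With that shift, 10 family probe sets were higher and 1 lower in NUP98-NSD1 than in HoxA9, beside 10 and 4 as deposited.

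Other genes of the pathway were read by the brightest probe set of each gene. Over all 14233 genes read this way, 13.1% were higher and 18.2% lower in NUP98-NSD1 than in HoxA9, 14.2% and 18.5% than in HoxA9+Meis1, and 4.18% and 4.48% in HoxA9+Meis1 than in HoxA9. In a list of 19 other Bcl2 family members, 11 could be tested. Of these, 1 was higher and 2 lower in NUP98-NSD1 than in HoxA9, 0 were higher and 3 lower than in HoxA9+Meis1, and 0 of 11 were called between the Hox groups. The 3 called of 11 in each comparison with NUP98-NSD1 stand beside 31.4% and 32.6% of all genes, so these shares are near the background. Bmf, a BH3-only gene, was higher than in HoxA9 by 0.88 (adjusted p = 0.0285). Bok, an effector relative of Bak, was lower by -1.21 (adjusted p = 0.0160) and, against HoxA9+Meis1, by -1.04 (adjusted p = 0.0291). Bnip2, a gene for a Bcl2-interacting protein, was lower by -0.43 (adjusted p = 0.0116) and -0.33 (adjusted p = 0.0353), and Bcl2l14 was lower than in HoxA9+Meis1 by -1.55 (adjusted p = 0.0288). Bcl2l14 averaged 196 in NUP98-NSD1, below the filter level of 369.318, and 597 in HoxA9+Meis1. Bok averaged 383 in NUP98-NSD1, near that level, against 937 in HoxA9 and 850 in HoxA9+Meis1. The dimmest 25% of all tested probe sets had median differences of -0.38 from HoxA9 and -0.33 from HoxA9+Meis1 in NUP98-NSD1. The part of that shift in the Bcl2l14 and Bok differences was not tested. The median difference of the list was -0.36, -0.23 and -0.17 in the order NUP98-NSD1 against HoxA9, NUP98-NSD1 against HoxA9+Meis1 and HoxA9+Meis1 against HoxA9. Over all genes it was -0.14, -0.13 and -0.02.

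Among 19 tested genes of the apoptosome, the caspases and their inhibitors, 5 were higher and 2 lower in NUP98-NSD1 than in HoxA9, 4 and 2 than in HoxA9+Meis1, and 2 and 0 in HoxA9+Meis1 than in HoxA9. These 7, 6 and 2 of 19 stand beside 31.4%, 32.6% and 8.66% of all genes, so the shares with NUP98-NSD1 are near the background. The medians were 0.01, -0.03 and -0.02. Casp9, the initiator caspase of the apoptosome, was higher in NUP98-NSD1 by 0.59 over HoxA9 (adjusted p = 0.0119) and by 0.95 over HoxA9+Meis1 (adjusted p = 0.000970). Apaf1, its scaffold, was higher by 0.35 (adjusted p = 0.0434) and 0.67 (adjusted p = 0.00205). Birc3, an inhibitor of apoptosis protein, was higher by 1.28 (adjusted p = 0.00178) and 1.06 (adjusted p = 0.00439). Casp6, an executioner caspase, was lower by -0.55 (adjusted p = 0.0208) and -0.44 (adjusted p = 0.0483), and Dffb, the caspase-activated DNase, was lower than in HoxA9 by -0.58 (adjusted p = 0.0237). Casp2 was lower in NUP98-NSD1 than in HoxA9+Meis1 by -0.75 (adjusted p = 0.000790). In HoxA9+Meis1, Casp2 and Cycs, the gene of cytochrome c, were higher than in HoxA9 by 0.67 (adjusted p = 0.00466) and 0.36 (adjusted p = 0.0290).

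Among 23 tested genes upstream of the family, 10 were higher and 5 lower in NUP98-NSD1 than in HoxA9, 5 and 4 than in HoxA9+Meis1, and 1 and 1 in HoxA9+Meis1 than in HoxA9, with medians of 0.37, 0.08 and 0.12. These 15, 9 and 2 of 23 stand beside 31.4%, 32.6% and 8.66% of all genes. Stat3, a cytokine-activated transcription factor, was higher in NUP98-NSD1 by 1.20 (adjusted p = 5.62e-05) and 1.16 (adjusted p = 6.90e-05). Stat5b, which acts downstream of SCF and other cytokines and can raise Bcl2l1, was higher by 0.74 (adjusted p = 0.00627) and 0.82 (adjusted p = 0.00327). Its relative Stat5a was higher by 0.52 (adjusted p = 0.00884) and 0.62 (adjusted p = 0.00351). Mdm4, an inhibitor of p53, was higher by 0.88 (adjusted p = 0.000568) and 0.61 (adjusted p = 0.00388). Its relative Mdm2 was lower, by -0.61 (adjusted p = 0.0189) and -0.58 (adjusted p = 0.0217). Pim1, a survival kinase that phosphorylates Bad, was higher than in HoxA9 by 0.90 (adjusted p = 0.0280), and its relative Pim3 was lower by -0.62 (adjusted p = 0.0299). Fbxw7, a ubiquitin ligase subunit that marks Mcl1 for breakdown, was higher by 0.78 (adjusted p = 0.00240) and 0.56 (adjusted p = 0.0115). Between the Hox groups Ppp3ca, a calcineurin subunit, was lower in HoxA9+Meis1 by -0.69 (adjusted p = 0.00483) and Ywhaq, a 14-3-3 protein, higher by 0.30 (adjusted p = 0.0370).

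Among 12 tested genes of the death receptor pathway, which reaches the mitochondria through Bid, 3 were higher and 1 lower in NUP98-NSD1 than in HoxA9, 4 and 0 than in HoxA9+Meis1, and 1 and 2 in HoxA9+Meis1 than in HoxA9. These 4, 4 and 3 of 12 stand beside 31.4%, 32.6% and 8.66% of all genes, so the shares with NUP98-NSD1 are near the background. The medians were 0.01, 0.14 and -0.27. Casp8, the caspase that cuts Bid, was higher than in HoxA9 in NUP98-NSD1, by 0.82 (adjusted p = 8.33e-05), and in HoxA9+Meis1, by 0.79 (adjusted p = 0.000251). Fadd, the adaptor that recruits caspase-8, was lower than in HoxA9 by -0.59 in NUP98-NSD1 (adjusted p = 0.00354) and by -0.46 in HoxA9+Meis1 (adjusted p = 0.0323). Cflar, which blocks caspase-8, was higher in NUP98-NSD1 by 0.38 (adjusted p = 0.0348) and 0.69 (adjusted p = 0.00183), and Tradd, an adaptor of TNF receptors, by 0.58 (adjusted p = 0.00545) and 0.80 (adjusted p = 0.000913). Tnfrsf1b, a TNF receptor, was lower in HoxA9+Meis1 than in HoxA9 by -1.55 (adjusted p = 0.00250) and higher in NUP98-NSD1 than in HoxA9+Meis1 by 1.44 (adjusted p = 0.00110).

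The genes most like each member over the 10 arrays were found by Pearson's r of log2 values among 14233 genes, as a description of 10 arrays that share groups and array sets. For Bcl2 1457687_at they were Hs2st1 (r = 0.965), Acss1 (0.958) and Col19a1 (0.957). For Bcl2l11 1456005_a_at they were Spin1 (r = 0.984), Kmt2c (0.978) and Eif2d (0.975). For Bak1 1418991_at they were Srsf2 (r = 0.987), Sp1 (0.983) and Rps24 (0.983). Bid 1417045_at and Pmaip1 1418203_at had Atp2a2 in common, with r of 0.978 and 0.942. For Mcl1 1448503_at the closest was Mtpn (r = 0.967), for Bbc3 Btbd1 (0.948), for Bcl2l1 1420888_at Hif3a (0.973) and for Bad 1416582_a_at Nfkb2 (0.860).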

How the data were processed

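The values that the authors deposited are linear intensities, 1 for each probe set on each array. Which software made them is not given in the sources used here. Each array had been scaled: trimmed by 2% at either end, its mean was 2500.01 to 2500.02. The intensities were used as deposited. Symbols came from the platform annotation, updated by Entrez ID through a RefSeq table for 34754 probe sets, and 34958 probe sets carry 1 symbol.

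Probe sets with a signal above the 40th percentile (369.318) on at least 3 of 10 arrays were tested, each alone, as log2(signal + 32) with limma 3.58.1 in R 4.3.3. The model had 4 group means, eBayes with an intensity trend, 6 residual degrees of freedom and two-sided p-values, adjusted by Benjamini-Hochberg within each comparison. MLL-ENL (1 array) was given no test. No pair of arrays was identical. The fit was tested on simulated data. Plots used matplotlib 3.10.9 (Python 3.11.15).

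All family members could be named. Genes of the other lists were named from the 4 largest called differences per list and comparison. Mdm2 and Pim3 were added as relatives of genes so named, and further marker genes were named to describe the marker lists. The 3 genes of highest correlation were taken for each member's brightest probe set. Members, lists and rules were chosen with earlier results of these data known. Alternatives were quantile normalization, a shift to a common median, 1 or 100 as offset, a 60th percentile filter or none, 1 value per gene, other variance models, fits without MLL-ENL or of the compared groups alone, clone number as a block, and each clone left out.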

Additional observations from a re-analysis of the deposited data

How the results depend on the processing

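The counts of called family probe sets were 14 (NUP98-NSD1 against HoxA9), 13 (NUP98-NSD1 against HoxA9+Meis1) and 5 (HoxA9+Meis1 against HoxA9). With the brightest probe set per gene they were 5, 5 and 2 of 9 genes, and with probe sets of a gene averaged 6, 3 and 2. Both of these settings test 9 genes in place of 26 probe sets, so their counts are not on the scale of the others. Without the intensity trend the last count was 3, and the cause was not tested. With a common median the counts were 11, 10 and 4, and with quantile normalization 14, 12 and 6. Leaving out 1 clone at a time gave 11 to 15, 10 to 13 and 3 to 6, and the 3 without HoxA9 clone 3 were the bright Bcl2 probe sets. Of 1377 single results under the alternatives, 1317 stayed on their side of the threshold, 48 lost and 12 gained a call. Of those with a call in either fit, 0 reversed direction, while differences without a call could change sign. With probe sets averaged, the differences of Bak1 and Bcl2l11 between NUP98-NSD1 and HoxA9+Meis1 fell to 0.26 (adjusted p = 0.0809) and 0.40 (adjusted p = 0.135).

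The labels use the same clone numbers in 3 groups without saying that a number marks a shared animal or day. Deviations of same-numbered clones from their group means had correlations of -0.06 to 0.04 over 9 pairs, and those of other pairs -0.05 to 0.05, so the numbers were not taken as pairing. With clone number as a replicate block the counts were 14, 12 and 5, and the call lost was that of Bak1 1425716_s_at (adjusted p = 0.0671).

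Precision is limited by 3 clones per group, 1 MLL-ENL array and array sets that follow the fusions, and the dim Bcl2 and Bcl2l1 probe sets were near or below the filter level.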
